A study of Mus musculus with 8 samples.

Results

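The effect of mutant ASXL1 on cells that had already begun to mature toward neutrophils was read from 4 of the 8 arrays of the series: 32Dcl3 cells carrying ASXL1-MT after 6 h and after 24 h in granulocyte colony-stimulating factor (G-CSF), each compared with mock cells at the same time. 32Dcl3 is a mouse myeloid line that depends on interleukin-3 (IL-3) for growth and takes on neutrophil features under G-CSF. The mock cells carried the retroviral vector pMYs-IG and the others pMYs-FLAG-ASXL1-MT-IG, the same vector with a FLAG-tagged mutant ASXL1. The other 4 arrays, both cultures in IL-3 and after 2 h in G-CSF, served as the early comparison. Each condition was measured on 1 array, so the 2 late time points stood in for replicates. Each vector stands for 1 transduced culture as far as the labels go, and they leave unsaid whether the 4 arrays of a vector came from 1 culture. The p-values therefore measure how far the vector difference varied within the early and within the late pair of time points. That spread may be technical or a real change with time. A difference between the cultures that has nothing to do with ASXL1 cannot be told apart from its effect. Neither the species nor the mutation of the transduced cDNA is labelled.

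ASXL1 is a chromatin protein that works with the deubiquitinase BAP1, which removes ubiquitin from histone H2A, and its truncating mutations are found in myeloid neoplasms with disturbed neutrophil maturation. During that maturation C/EBP factors and PU.1 switch on genes for granule proteins in waves, first the primary (azurophil) granules, then the secondary and tertiary ones, while MYC-driven genes for ribosome assembly are turned down. The comparison at 6 and 24 h asks how the mutant alters this program once it is under way.

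The deposited values are log2 expression of a probe set minus its median over the 8 arrays, with base 2 assumed, so each value below says how far an array lay above or below the middle of the series for that probe set. Differences are ASXL1-MT minus mock on the same log2 scale, where 1 is 2-fold. Of 18193 genes, 12948 reached the median level of the table on at least 2 arrays and were tested, and 7730 reached its 70th percentile and are called bright. Both filters can be passed on 2 high arrays alone, so the genes counted include some that are dim on the other arrays and had to differ somewhere. The number of arrays limits the precision. The median of each array lay between -0.04 and 0.06, and the median difference over the tested genes was 0.02 at 6 h and 0.01 at 24 h. The standard deviation over all probe sets was 0.91 for ASXL1-MT and 0.92 for mock at 6 h. At 24 h it was 0.93 for ASXL1-MT and 0.97 for mock. No pair of arrays held identical values.

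No single gene passed the test of the difference between ASXL1-MT and mock at 6 and 24 h. With limma, 0 of 12948 genes (0.0%) were called at a Benjamini-Hochberg false discovery rate of 0.05, the smallest adjusted p was 0.524, and 702 genes (5.42%) had an unadjusted p under 0.05. An exact permutation test of 2 arrays against 2 that ignores the pairing by time cannot give a two-sided p below 0.333. The 2 time points shared little among large differences. By size alone, 178 genes (1.37% of those tested) were higher in ASXL1-MT by at least 2-fold at both time points and 113 (0.873%) were lower, 291 in all, while 288 were at least 2-fold apart in opposite directions. Among bright genes 16 (0.207%) were higher and 9 (0.116%) lower at both, 25 in all, against 15 in opposite directions. Any difference of the same sign at both time points was seen for 28.2% of tested genes upward and 24.8% downward, and for 27.1% and 27.6% of bright genes. The shares over tested genes are the background for the list counts at the late times below. Across genes, which are not independent replicates, the differences at 6 and 24 h had a Pearson correlation of 0.0115 over the tested genes and 0.106 over the bright ones. 

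**Figure D1:**
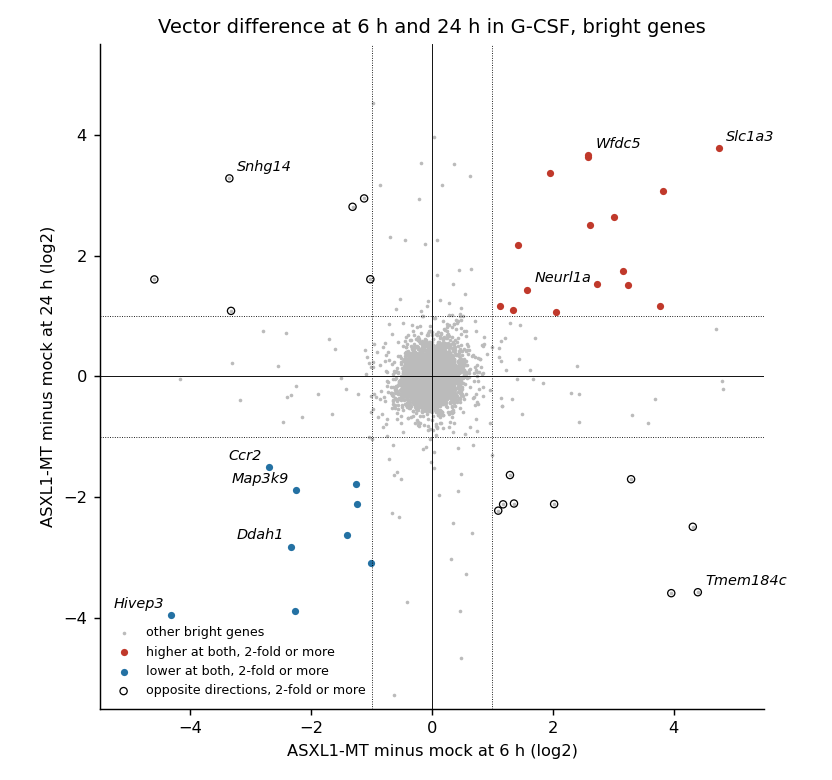
Difference between ASXL1-MT and mock at 6 h (x axis, log2) and 24 h (y axis, log2) for the 7730 bright genes, 1 point a gene. Most genes lie within 2-fold (dotted lines) at both times, 16 lie in the upper right corner, 9 in the lower left, and 15 (open circles) in the corners of opposite direction.

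Genes of the secondary and tertiary granule list mostly measured lower in ASXL1-MT cells, with no member past the test. These granules are the stores that neutrophils fill in the later waves. The list also holds neutrophil maturation markers that are not granule proteins, such as Ltb4r1 and Stfa2l1. Its members are called granule genes below. Of 25 listed genes 22 were on the array and 14 were tested, and 11 of these 14 were lower at both 6 and 24 h, beside 24.8% of all genes tested; 1 was higher at both. The median difference of the list was -0.30 at 6 h and -0.30 at 24 h, against 0.02 and 0.01 for all tested genes. None of the 14 passed limma over all genes, and 3 had an unadjusted p under 0.05. In bulk RNA, fewer maturing cells and less of these transcripts per cell cannot be told apart. After quantile normalization 6 were lower at both, with a median of -0.35 at 6 h and -0.08 at 24 h.

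The 5′ ends of 4 of the genes described here are shown because 11 granule genes differed in 1 direction and because granule promoters are known targets of C/EBP factors and PU.1. Each is the 300 bases from 250 before to 50 after the gene's start in RefSeq (GRCm38.p6), written in the direction of the gene. Capitals mark matches, on either strand, to TTGCNNAA, a C/EBP-type motif, or to GAGGAAG, a PU.1-type motif.
Ngp: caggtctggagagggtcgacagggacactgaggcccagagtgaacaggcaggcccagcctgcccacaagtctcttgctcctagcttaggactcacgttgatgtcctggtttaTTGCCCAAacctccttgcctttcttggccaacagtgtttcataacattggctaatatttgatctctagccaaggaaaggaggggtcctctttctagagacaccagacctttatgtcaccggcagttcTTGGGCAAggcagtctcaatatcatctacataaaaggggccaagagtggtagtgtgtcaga
Lcn2: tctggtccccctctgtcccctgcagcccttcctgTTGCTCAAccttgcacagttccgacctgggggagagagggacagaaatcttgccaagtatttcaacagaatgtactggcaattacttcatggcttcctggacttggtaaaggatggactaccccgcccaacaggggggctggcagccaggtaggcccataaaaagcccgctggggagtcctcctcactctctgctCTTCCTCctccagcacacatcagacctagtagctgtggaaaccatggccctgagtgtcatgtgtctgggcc
Slpi: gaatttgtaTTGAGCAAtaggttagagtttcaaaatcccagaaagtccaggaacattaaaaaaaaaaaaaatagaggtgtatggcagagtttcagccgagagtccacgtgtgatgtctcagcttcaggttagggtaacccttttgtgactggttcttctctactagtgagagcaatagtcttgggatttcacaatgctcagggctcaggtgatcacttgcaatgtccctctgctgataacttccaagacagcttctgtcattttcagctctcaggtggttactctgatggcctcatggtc
Clec5a: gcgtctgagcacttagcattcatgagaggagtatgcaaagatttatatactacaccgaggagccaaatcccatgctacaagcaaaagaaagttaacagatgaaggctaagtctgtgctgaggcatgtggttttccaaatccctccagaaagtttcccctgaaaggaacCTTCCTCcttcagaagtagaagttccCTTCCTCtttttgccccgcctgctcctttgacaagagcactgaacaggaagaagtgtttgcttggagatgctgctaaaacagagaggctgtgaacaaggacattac
These windows lie at chr9:110419558-110419857 (plus strand), chr2:32387690-32387989 (minus strand), chr2:164356458-164356757 (minus strand) and chr6:40585756-40586055 (minus strand). Of the 14 granule genes 12 had a promoter in the table, and 6 of the 12 (50.0%) held TTGCNNAA: Ltf, Lcn2, Ngp, Slpi, Adam8 and Plaur. Among the promoters of 10476 tested genes the share was 8.39%. GAGGAAG was in 4 of the 12 (33.3%) and in 13.5% of the tested genes. The granule promoters were poor in CG dinucleotides, with a median of 3 in the window against 20 over the tested genes. A match is a stretch of letters and was not tested as a binding site.

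The members with the clearest separation carry the rest of the picture. Lcn2, which binds bacterial siderophores, measured 0.50 at 6 h and 3.23 at 24 h in ASXL1-MT cells and 1.04 and 3.51 in mock cells. Hp (haptoglobin, which binds hemoglobin) measured 0.80 and 3.53 against 1.14 and 3.83. In both genes the ASXL1-MT array was the lower one at each time, with differences between -0.54 and -0.28, while both cultures measured over 2 log2 units more at 24 h than at 6 h. Ngp, a granule protein whose promoter holds 2 C/EBP-type matches, measured -0.96 and 4.19 against 0.05 and 4.51, a difference of -1.01 at 6 h and -0.32 at 24 h. The leukotriene B4 receptor gene Ltb4r1 measured 0.49 and 1.21 against 1.10 and 1.68. Its late difference was -0.54 ± 0.13 (SE from limma over the early and late arrays together, adjusted p = 0.880). Stfa2l1, a stefin-type inhibitor of cysteine proteases, measured -0.69 and 3.90 against -0.07 and 4.43, a late difference of -0.57 ± 0.10 (adjusted p = 0.723). Slpi, an inhibitor of neutrophil elastase, had differences of -0.35 and -0.29. The other members lower at both were Ltf (lactoferrin), Lrg1, the integrin chain Itgam, the sheddase Adam8 and the urokinase receptor Plaur, with differences between -0.49 and -0.03. Cd177, a neutrophil surface protein, differed by 0.04 and -0.30, and the oxidase subunit Cybb by 1.38 and -0.40. Mmp9, the gelatinase of tertiary granules, was the member higher at both (2.05 and 0.40); neither Cybb nor Mmp9 was bright.

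Of 14 tested primary granule genes 4 were lower and 2 higher at both late time points, with medians of -0.17 at 6 h and 0.04 at 24 h. In IL-3 and at 2 h 10 of the 14 were lower at both, beside 27.5% of all tested genes, with medians of -0.08 and -0.23. Myeloperoxidase (Mpo) differed by 0.00 and 0.06, cathepsin G (Ctsg) by 0.01 and -0.03 and elastase (Elane) by -0.26 and 0.07. Lysozyme stood apart: Lyz1 measured -0.13 and 2.90 in ASXL1-MT cells and 0.38 and 3.67 in mock cells, and Lyz2 -0.21 and 2.36 against 0.18 and 3.04. The late difference was -0.64 ± 0.15 for Lyz1 (limma, adjusted p = 0.875), and its 2 other tested probe sets lay in the same direction. The 2 lysozymes are near copies, so their probe sets may share signal. Epx, the eosinophil peroxidase, was the member most clearly higher (0.54 and 1.37).

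Genes for the surface and effector proteins of mature neutrophils were more often lower than higher, in IL-3 and at 2 h as well. Of 28 tested members 15 were lower and 5 higher at both late time points, with medians of -0.11 and -0.13. In IL-3 and at 2 h together 20 of the 28 were lower at both, beside 27.5% of all tested genes, and 14 were lower at all 4 time points, beside 8.76%. The G-CSF receptor gene Csf3r measured 0.34 and 1.55 at the late time points in ASXL1-MT cells and 0.61 and 1.68 in mock cells, a late difference of -0.20 ± 0.10 (limma, adjusted p = 0.882), beside differences of -0.41 in IL-3 and -0.34 at 2 h. Cd14, a co-receptor for endotoxin, measured 0.29 and 2.44 against 0.96 and 2.96, and Pirb, an inhibitory receptor, 0.64 and 2.02 against 1.05 and 2.52. The integrin chain Itgb2 differed by -0.22 and -0.75 and the complement receptor C5ar1 by -0.55 and -0.34. The calcium-binding S100a8 and S100a9 changed sides, at -0.26 and -0.26 at 6 h and 0.17 and 0.14 at 24 h. For the granule list the early counts were smaller than the late one: 6 of 14 members were lower in both IL-3 and at 2 h, where its medians were -0.07 and -0.15. Whether either list's shift differs between early and late was not tested.

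**Figure D2:**
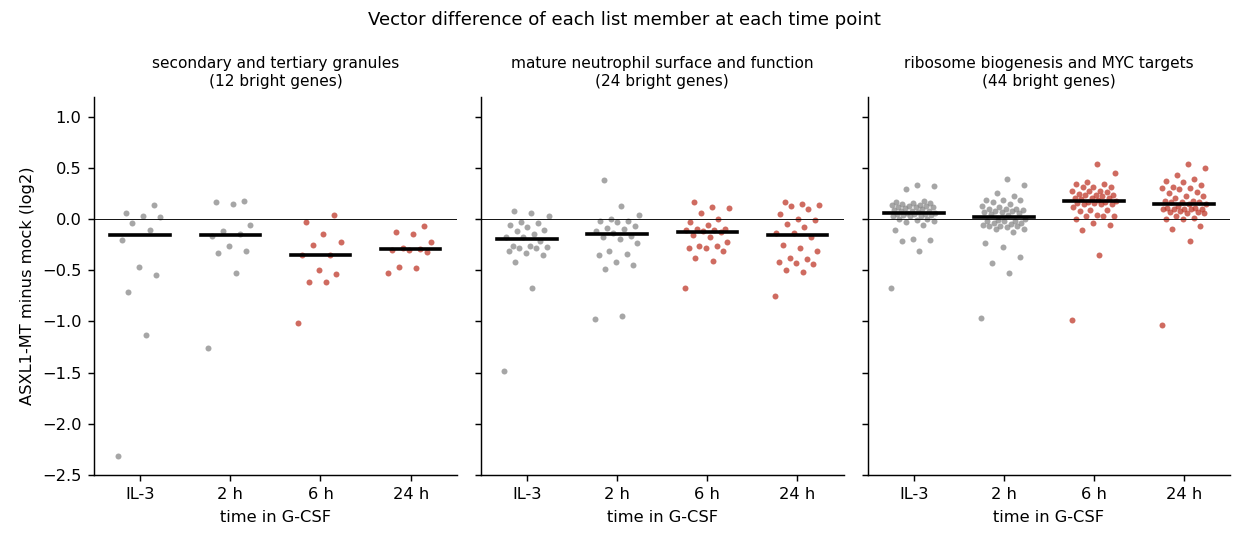
Difference between ASXL1-MT and mock (y axis, log2) of each bright member of 3 gene lists at each time in G-CSF (x axis), 1 point a gene, with the median as a bar; red marks 6 and 24 h. The granule medians at 6 and 24 h lie below those in IL-3 and at 2 h, the mature neutrophil medians lie below 0 at all 4 times, and the ribosome medians lie above 0 at 6 and 24 h.

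Clec5a, a myeloid C-type lectin receptor that signals through the ITAM adaptor Tyrobp (DAP12), had the largest late difference of its list. Its single probe set measured -0.84 in IL-3, -1.06 at 2 h, -1.89 at 6 h and 1.52 at 24 h in ASXL1-MT cells, and -0.12, 0.50, 0.12 and 3.67 in mock cells. The ASXL1-MT array was the lower one at every time point, by 4.01-fold at 6 h and 4.43-fold at 24 h, and its value at 24 h was below that of mock cells by more than 2 log2 units although both cultures reached their highest level then. The late difference was -2.08 ± 0.25 (SE from limma) with an adjusted p of 0.623, so it missed the threshold. The SE came from the early and late arrays together, so it includes the spread of the early differences (-0.72 in IL-3, -1.56 at 2 h). The late ones were -2.01 at 6 h and -2.15 at 24 h. The departure of the late difference from the early one (-0.93 ± 0.36) did not pass either (adjusted p = 1.0). Clec5a was below the bright filter. Its partners differed by far less: Tyrobp by -0.18 and -0.16, the alternative adaptor chain Fcer1g by 0.00 and -0.03 and the kinase Syk by -0.19 and -0.26. Of 16 tested genes for ITAM-linked receptors and their signaling proteins 7 were lower and 2 higher at both late times. These 7 were lower at all 4 times, beside 8.76% of all genes tested. Already in IL-3 and at 2 h, 11 of the 16 were lower at both, beside 27.5%, with medians of -0.13 and -0.32. The list's median was -0.13 at 6 h and -0.11 at 24 h, and 0.03 at 6 h when all probe sets of a gene were averaged.

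Asxl1 was read by 3 tested probe sets that did not share a direction. The brightest measured 0.01 at 6 h and 0.59 at 24 h in ASXL1-MT cells and 0.48 and 0.86 in mock cells, a late difference of -0.37 ± 0.11 (limma, adjusted p = 0.882). The other 2 differed by -0.01 and -0.07 and by 0.83 and 0.16. Where these probe sets lie relative to the transduced cDNA is not known, so they check neither its presence nor its level. Of 40 tested genes of the Polycomb and ASXL1 complexes 17 were lower and 10 higher at both time points, with medians of -0.02 and -0.03. Ring1, a ubiquitin ligase for histone H2A, differed by -0.20 and -0.37, the methyltransferase Ezh2 by -0.10 and -0.17, the deubiquitinase Bap1 by -0.06 and -0.05, and Bmi1, a Polycomb subunit, by 0.16 and 0.42.

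HOX genes are held down by Polycomb in maturing cells, and of the tested members of this list Hoxa9, a leukemia-linked one, was the only one at least 2-fold apart in 1 direction at both times. It measured 0.40 in IL-3, -1.79 at 2 h, 0.04 at 6 h and 0.60 at 24 h in ASXL1-MT cells, and 0.49, -0.04, -2.36 and -2.10 in mock cells. Both late ASXL1-MT arrays lay above both late mock arrays, by 2.40 and 2.70, whereas at 2 h the order was the opposite (-1.75). The late difference was 2.55 ± 0.48 (limma, adjusted p = 0.760), the probe set was dim, and a second one below the filter differed by 2.78 at 6 h and -2.21 at 24 h. Of 26 HOX and cofactor genes on the array 9 were tested, 3 higher and 4 lower at both. The cofactor Meis1 differed by 0.43 and -0.76, in opposite directions. The progenitor genes Id3 and Cd34 were too dim to test and Cebpe was not analysed here.

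Among 33 tested myeloid transcription factors 14 were lower and 5 higher at both late times, with medians of -0.10 and -0.08. Gfi1, a repressor needed for neutrophil maturation, measured 0.11 and 1.01 in ASXL1-MT cells and 0.49 and 1.17 in mock cells. Rara, the retinoic acid receptor, differed by -0.91 and -0.76 but was not bright. Cebpb differed by -0.18 and -0.23, Cebpd by -0.29 and -0.07 and the PU.1 gene Spi1 by -0.06 and -0.36. Gata2, a factor of progenitors and of mast cells, went the other way at 0.67 and 0.35 (late difference 0.51 ± 0.14, limma adjusted p = 0.882). Its other tested probe set gave 0.30 and 0.44. Gata2 was also higher in IL-3 (0.41) and at 2 h (0.60). Myc measured -0.32 and 0.54 against -0.64 and 0.32, higher by 0.32 and 0.23.

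Genes of ribosome assembly, most of them MYC targets, formed the largest one-sided group. All 44 members on the array were tested and bright, and 36 were higher in ASXL1-MT at both 6 and 24 h, beside 28.2% of all tested genes; 2 were lower at both. The median difference was 0.18 at 6 h and 0.15 at 24 h, and none passed limma over all genes, with 6 at an unadjusted p under 0.05. With each array centred on its median the count was 30. After quantile normalization it was 29, with a median of 0.16 at 6 h and 0.08 at 24 h. In mock cells 26 of the 44 were at least 2-fold lower at 24 h than in IL-3, with a median change of -1.14. Gnl3 (nucleostemin) measured -1.07 and -0.28 in ASXL1-MT cells and -1.44 and -0.58 in mock cells. Polr1b, a subunit of RNA polymerase I, measured -0.90 and -0.41 against -1.25 and -0.84, a late difference of 0.39 ± 0.14 (limma, adjusted p = 0.882). In both genes the ASXL1-MT array was the higher one at each late time. Polr1b was also higher in ASXL1-MT cells in IL-3 (0.83 against 0.53), though not at 2 h (0.41 against 0.49). A smaller fall from IL-3 was not tested. Wdr12 and Ppan, which act in assembly of the large ribosomal subunit, differed by 0.54 and 0.26 and by 0.46 and 0.31, and Apex1, a DNA repair nuclease, by 0.28 and 0.38. The 2 members lower at both were Odc1, the first enzyme of polyamine synthesis (-0.35 and -0.22), and Mycn (-0.99 and -1.03). Mycn was lower at all 4 time points, but its 2 other tested probe sets did not share the direction. In IL-3 and at 2 h 18 of the 44 were higher at both, beside 24.4% of tested genes, and 16 were higher at all 4 times, beside 8.29%.

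The granule and ribosome lists belong to opposite arms of the response to G-CSF, and the bright genes as a whole were ordered the same way. Genes were grouped by their change on the mock arrays between IL-3 and 24 h, and the difference between the vectors was read at 6 h. The reading shares no array with the grouping, but both use the mock culture, so they are not independent. Genes were grouped by the mock arrays only. Of 643 genes at least 2-fold higher at 24 h, 70.3% were lower in ASXL1-MT at 6 h (median difference -0.12), and of 365 genes at least 2-fold lower, 27.4% were (median 0.13), beside 49.9% of all 7730. The size followed the change in mock cells: the median was -0.22 for the 155 genes that were at least 4-fold higher in mock cells and -0.10 for the 488 between 2- and 4-fold. Grouped instead by the change from IL-3 to 6 h and read at 24 h, 60.9% of 361 higher genes and 37.4% of 337 lower genes were lower in ASXL1-MT, beside 50.7% of all. Without the granule and ribosome lists the shares were 69.8% and 29.2% at 6 h and 60.4% and 40.1% at 24 h. At 2 h 66.7% of the genes that were higher in mock cells at 24 h and 40.3% of those that were lower were already lower in ASXL1-MT, beside 54.9% of all bright genes; grouped by the change to 6 h, the shares at 2 h were 59.0% and 47.5%. Genes within a class share the same arrays, so these shares are a description with no test. They were read on the deposited values, without quantile normalization.

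**Figure D3:**
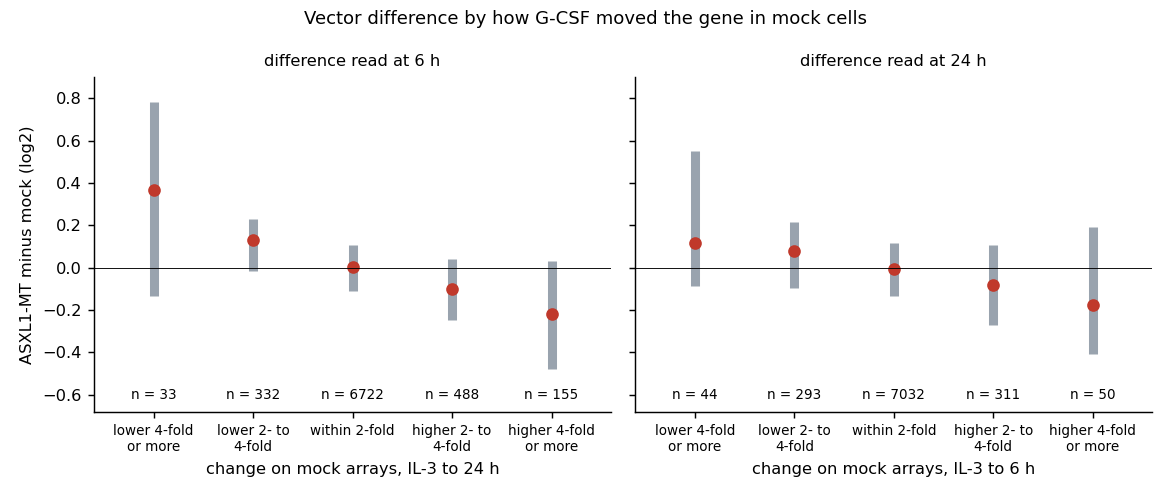
Difference between ASXL1-MT and mock (y axis, log2; dot, median; bar, quartiles) for bright genes grouped by their change on the mock arrays (x axis). On the left the groups come from IL-3 to 24 h and the difference is read at 6 h, on the right from IL-3 to 6 h with the difference at 24 h; medians go from above 0 in genes that were lower after G-CSF in mock cells to below 0 in genes that were higher.

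The largest same-sign differences of bright genes mostly rested on 1 probe set. Of the 25 genes past 2-fold at both times 11 had another tested probe set, and in 3 of them one shared the direction. The limit itself fell between Khnyn (2.05 and 1.07, inside) and Ubald1 (1.29 and 0.89, outside) upward, and between Glis3 (-1.01 and -3.08) and Klhl6 (-1.04 and -0.998) downward. Map3k9, a kinase upstream of JNK, measured -0.45, -1.08, -0.52 and -0.13 in ASXL1-MT cells from IL-3 to 24 h and 0.93, 0.13, 1.73 and 1.76 in mock cells. Its ASXL1-MT array was lower by at least 2-fold at all 4 time points, and the late difference was -2.07 ± 0.14 (limma, adjusted p = 0.524). Ddah1, which degrades an inhibitor of nitric oxide synthase, measured -2.32 and -1.94 at the late times against 0.01 and 0.88, while in IL-3 and at 2 h it was higher in ASXL1-MT cells (0.81 and 0.57). Its late minus early difference was -3.26 ± 0.25 (adjusted p = 0.617), and 2 other tested probe sets did not share the late direction. Hivep3, a zinc finger protein, measured -2.25 and -2.55 against 2.06 and 1.40, and none of its 4 other tested probe sets had that direction. When bright genes alone were fitted, limma called 3 genes, all lower: Ddah1, Hivep3 and Map3k9 (adjusted p = 0.0496).

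For 2 chemokine receptors every tested probe set lay lower at both times. Ccr2, which draws monocytes toward CCL2, measured -1.73 and 3.46 in ASXL1-MT cells and 0.96 and 4.96 in mock cells, and both of its other tested probe sets were lower at both times. Ccr1 measured -0.29 and 4.03 against 0.52 and 4.87, with differences of -0.82 and -0.85, and its other tested probe set gave -1.78 and -0.84. Both genes were far above their IL-3 values at 24 h in both cultures. They passed the bright filter only on the 24 h arrays, so their 6 h differences come from dimmer values. The remaining bright genes furthest down were the lymphoid Igll1 (-1.41 and -2.63), the transcription factor genes Nfib (-2.27 and -3.88) and Glis3, the phosphodiesterase Pde3a (-1.26 and -1.78), the somatostatin receptor Sstr3 (-1.25 and -2.11) and Klhl6. Sstr3 passed the bright filter only on mock arrays. Nfib measured the same value, -0.43, on the ASXL1-MT arrays in IL-3, at 6 h and at 24 h. It passed the bright filter only on the ASXL1-MT array at 2 h (3.8) and the mock array at 24 h (3.5), which also makes its 24 h difference.

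Upward, Slc1a3, a glutamate transporter, differed by 4.75 and 3.78 at the late times and by -1.97 and -4.40 in IL-3 and at 2 h. Wfdc5, a protein with a protease-inhibitor domain, measured 1.57 and 1.63 in ASXL1-MT cells and -1.02 and -2.03 in mock cells. It passed the bright filter only on those ASXL1-MT arrays, so it was counted as bright through the group where it is high. Neurl1a, a ubiquitin ligase, measured 0.74 and 1.33 against -0.83 and -0.11 (differences of 1.57 and 1.44, limma adjusted p = 0.524), and 1 of its 3 other tested probe sets was also above 2-fold at both times (1.10 and 1.94). The uncharacterised 2900026A02Rik (1.42 and 2.17) had a second probe set in the same direction (2.69 and 1.57). Zbtb7c, Particl, Lin7a, Rims2, Tead4, Mirg, Oosp3 and Bmpr1a, whose smaller difference lay between 1.51 and 3.07, had no other tested probe set or none that shared the direction. Particl also passed the bright filter only on ASXL1-MT arrays. Thbs1 (thrombospondin, an adhesion protein), which was not bright, was a steadier example below 2-fold. It measured 0.43 and 0.14 against -0.49 and -0.84, was higher at all 4 time points, had a late difference of 0.95 ± 0.09 (limma, adjusted p = 0.524), and its second probe set gave 0.89 and 0.90.

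**Figure D4:**
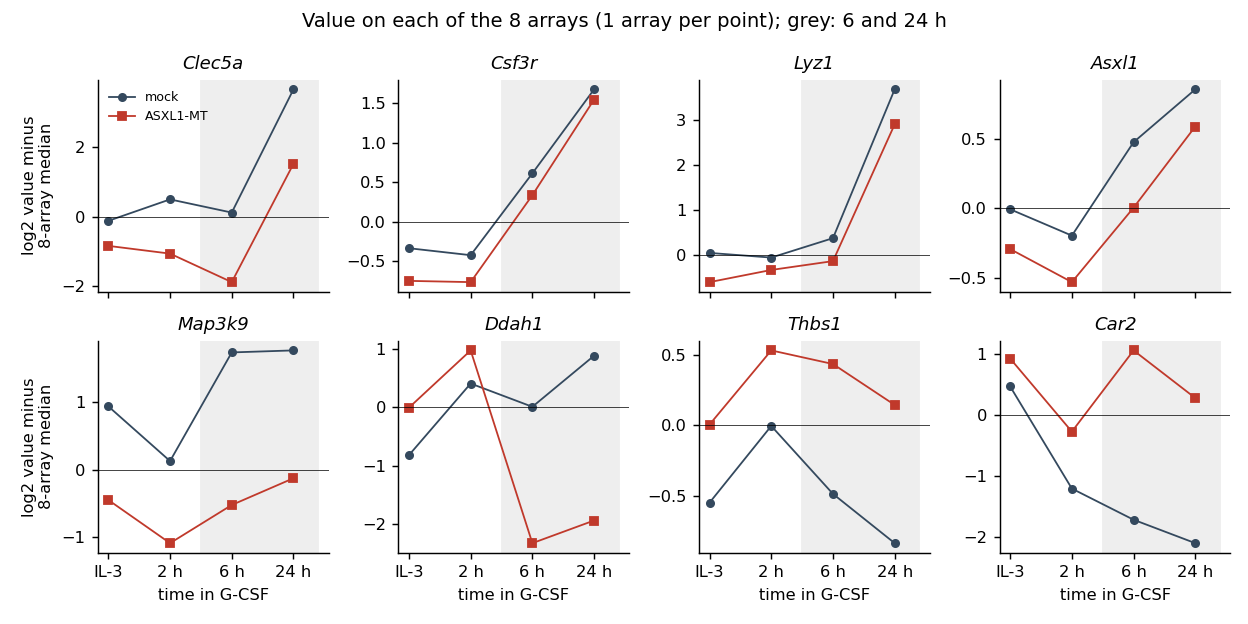
Value on each array (y axis, log2 minus the median over the 8 arrays; scales differ between panels) by time in G-CSF (x axis) for 8 genes, 1 array a point, mock as circles and ASXL1-MT as squares. Clec5a, Csf3r, Lyz1, Asxl1 and Map3k9 lie lower in ASXL1-MT cells at all 4 times and Thbs1 higher, while Ddah1 changes order between 2 h and 6 h.

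Signaling genes of the 2 cytokines had members on both sides, beside 24.8% lower and 28.2% higher of all genes tested. Of 30 tested STAT5 and IL-3 targets 10 were lower and 7 higher at both late times, and of 25 STAT3 and G-CSF targets 11 were lower and 6 higher. Cish, a feedback inhibitor of STAT5, differed by -0.38 and -0.45. Spry4, an inhibitor of receptor kinase signaling, measured 0.19 and 0.59 in ASXL1-MT cells and -2.91 and -1.37 in mock cells, a late difference of 2.53 ± 0.36 (limma, adjusted p = 0.681), and was dim. Among 22 cytokine receptor genes 10 were lower and 6 higher; Il4ra (-0.49 and -0.33) and Ifngr1 (-0.32 and -0.33) were lower, and the IL-3 receptor chain Csf2rb2 was higher (0.30 and 0.39). Of 21 ligand genes 6 were lower and 5 higher. Immediate early genes counted 9 lower and 6 higher of 26, and interferon response genes 11 lower and 4 higher of 27.

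Lists of proliferation and metabolism had members on both sides, beside 24.8% lower and 28.2% higher of all genes tested. Of 39 tested G2 and M phase genes 14 were lower and 4 higher at both times, with a median of 0.04 at 6 h and -0.17 at 24 h. S phase genes counted 12 lower and 6 higher of 44 (medians 0.01 and -0.06). G1 cyclins and CDK inhibitors counted 10 lower (52.6%) and 2 higher (10.5%) of 19. Of 20 cholesterol synthesis genes 10 were higher (50.0%) and 3 lower (15.0%). The higher ones included Lss, which closes the sterol rings (0.27 and 0.36), and the sterol sensor Insig1 (0.28 and 0.33). Hypoxia and glycolysis genes counted 12 higher and 6 lower of 25, and the mitophagy receptor Bnip3 was among the higher ones (0.38 and 0.44). The ATF4 response counted 9 higher and 7 lower of 30, and the unfolded protein response 6 higher and 1 lower of 24. Of 26 p53 targets 8 were lower and 2 higher, with the death receptor Fas at -0.73 and -1.67. Of 17 BCL2 family genes 7 were lower and 3 higher, and Bcl2l1 (BCL-XL) differed by -0.32 and -0.25 on its brightest probe set and by 0.27 and 0.29 on its other tested one. Integrin and adhesion genes counted 13 lower (46.4%) and 6 higher (21.4%) of 28.

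**Figure D5:**
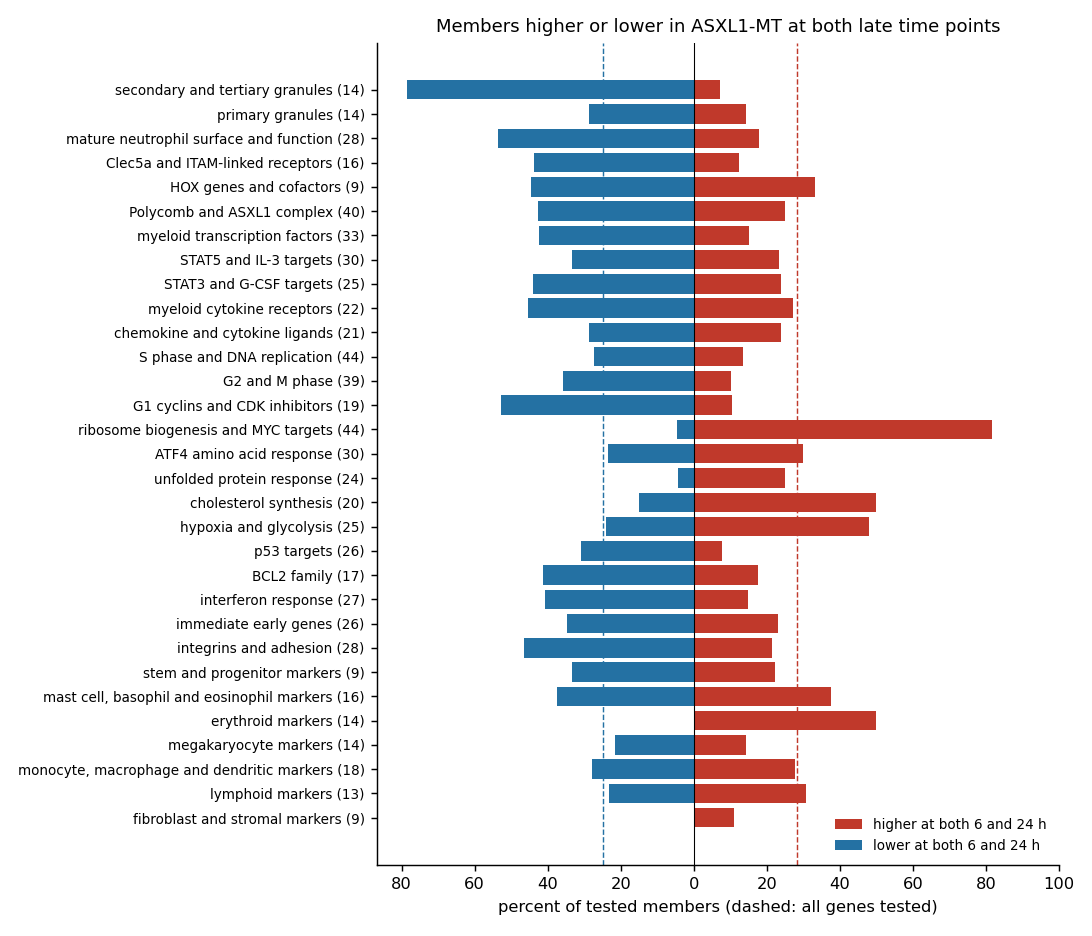
Share of tested members (x axis, percent) of each of 31 gene lists (y axis, number tested in brackets) that were higher (red, right) or lower (blue, left) in ASXL1-MT at both 6 and 24 h. Dashed lines mark the shares over all tested genes, 28.2% higher and 24.8% lower; the ribosome list reaches furthest to the right and the secondary granule list furthest to the left.

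Markers of other blood lineages were read beside these lists, and their part in the granule difference was not tested. Of 14 tested erythroid markers 7 were higher and 0 lower at both late times, beside 28.2% and 24.8% of all genes tested. Among the 5 bright ones 2 were higher and 0 lower. The median of these 14 on the late arrays was 0.43 and -0.03 in ASXL1-MT cells and 0.28 and -0.29 in mock cells. Car2, a carbonic anhydrase, measured 1.06 and 0.28 against -1.72 and -2.11, a late difference of 2.58 ± 0.19 (limma, adjusted p = 0.524), on a dim probe set; the erythroid factor Klf1 differed by 0.56 and 0.50. Mast cell, basophil and eosinophil markers counted 6 higher and 6 lower of 16, with medians on the late arrays of 0.54 and 0.55 against 0.49 and 0.21. Among the 8 bright ones 5 were higher and 1 lower. With limma 7 of the 16 had an unadjusted p under 0.05 and none was called. The 6 higher at both were Epx, Gata2, Srgn and the proteases Tpsab1 (0.65 and 1.58), Cpa3 (0.40 and 0.94) and Mcpt8 (0.38 and 0.48). The 6 lower at both were the mast cell protease Cma1 (-0.37 and -0.76), the histamine-forming enzyme Hdc (-0.09 and -1.73), the IgE receptor chain Ms4a2 (-0.23 and -0.35), the IL-5 receptor Il5ra (-0.15 and -0.37), Cd200r3 (-0.50 and -0.27) and Siglecf (-0.45 and -0.01). The eosinophil granule gene Prg2 differed by -0.23 and 0.60. Of 18 monocyte, macrophage and dendritic markers 5 were higher and 5 lower, and of the 5 bright ones 0 were higher and 3 lower. Stem and progenitor markers counted 2 higher and 3 lower of 9. Among the higher ones Angpt1 differed by 0.86 and 0.53, and its second probe set by 4.38 and 1.01. Among the lower ones Mycn differed by -0.99 and -1.03 on its brightest probe set, a direction its other tested probe sets did not share. Megakaryocyte markers counted 2 higher and 3 lower of 14 (7 of them bright), lymphoid markers 4 and 3 of 13 (1 bright) and fibroblast markers 1 and 0 of 9 (5 bright). The table is centred, so no marker can be said to be at 0.

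The late difference was set against the early one in IL-3 and at 2 h. With limma 0 of 12948 genes (0.0%) had a late difference that departed from the early one at the same false discovery rate; the smallest adjusted p was 0.617, and 618 genes had an unadjusted p under 0.05. At least 2-fold differences of 1 sign at all 4 time points were seen for 12 genes upward (0.0927%) and 12 downward (0.0927%), of which Map3k9 alone was bright. Adora3, an adenosine receptor, was the steadiest of them, at 1.05 in IL-3, 1.21 at 2 h, 1.05 at 6 h and 1.09 at 24 h, with its second tested probe set in the same direction; it was picked from the 24 after their values were seen. Besides Ddah1, Hivep3 and Slc1a3, the bright genes whose mean late difference lay furthest from the mean early one were 4930447K03Rik (-3.96 and -3.79 early, 0.36 and 3.51 late), Gm36529, Tead4 and Lin7a above, and Nfib, 4833422M21Rik and Gm30421 below.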

How the data were processed

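Total RNA of 8 samples was hybridised to Affymetrix mouse arrays, 1 per condition. RMA, with no version, stands in the submitters' processing notes, and MAS 5.0 is given for signal capture per the labels. The deposited log2 values are centred on the median of each probe set over the 8 arrays; no source used here gives the log base, the centring or the scaling of the arrays, and base 2 was assumed. Levels before centring were estimated from the binary rounding step of the deposited numbers. This resolves levels only coarsely, so they serve as filters.

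The probe table paired 34945 of 45037 probe sets with 1 gene symbol, 932 with several and 9160 with none. Each gene was read from its brightest probe set by mean level rounded to a whole log2 unit, ties going to the more specific type. A slightly dimmer probe set could therefore be the one used. Genes were tested if their second-highest array value reached the median estimated level of 6.28, and were called bright at the 70th percentile, 8.36.

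limma 3.58.1 in R 4.3.3 was fitted to all 8 arrays with time point as a block and separate vector effects for the early and late pair of times, with 2 residual degrees of freedom, a prior worth 1.2, two-sided tests and Benjamini-Hochberg adjustment over 12948 genes. The code was tested on simulated data. Promoters came from RefSeq (GRCm38.p6) by symbol.

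The comparison and the 31 gene lists (839 genes, 775 on the array, 646 tested, 80 in more than 1 list) were chosen with earlier results of these data known. Named genes were the 12 bright genes each way with the largest smaller difference of the same sign at 6 and 24 h, up to 3 each way or the 2 most extreme per list, the 5 each way at least 2-fold apart in opposite directions, the 5 each way furthest late from early, and 11 fixed genes. Other list members were named after their values were seen, as were the promoter motifs and the grouping by the change on the mock arrays. Alternatives covered the filter, the choice of probe set, the scaling, the prior, the arrays in the fit and each array left out.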

Additional observations from a re-analysis of the deposited data

Results flagged for a closer look

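Bright genes that were at least 2-fold apart at both late time points but in opposite directions were singled out, the 5 furthest each way. The change of direction was not tested, since each time point has 1 array per vector. Higher in ASXL1-MT at 6 h and lower at 24 h were Ptchd4 (3.96 and -3.59 on the log2 scale), Tmem184c (4.40 and -3.57), Gm36529 (4.32 and -2.49), the sodium channel gene Scn9a (2.02 and -2.11) and Ly6g6g (3.29 and -1.70). Lower at 6 h and higher at 24 h were Snhg14 (-3.35 and 3.28), 1700011B04Rik (-4.59 and 1.60), the homeobox gene Dbx1 (-1.31 and 2.81), the kallikrein gene Klk1b11 (-1.12 and 2.94) and the synapsin gene Syn2 (-3.33 and 1.08). In Snhg14, 5 of the 8 arrays measured 0.00, and the differences came from the mock array at 6 h (3.35) and the ASXL1-MT array at 24 h (3.28). Snhg14 and 1700011B04Rik passed the bright filter only on these arrays, which also make their differences. Of these 10 genes Syn2 alone had other tested probe sets, and both were likewise lower at 6 h and higher at 24 h (-2.12 and 0.42, and -0.38 and 0.48).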

How the results depend on the processing

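The counts of genes past 2-fold at both late times moved with the filter and the size: 636 higher and 404 lower without a filter on dim genes, 16 and 9 with the stricter filter, 370 and 209 over single probe sets, 418 and 225 at 1.5-fold, and 72 and 46 at 3-fold. They were 188 and 100 when the probe sets of a gene were averaged, 166 and 119 with arrays centred on their median and 147 and 124 after quantile normalization. limma called 0 late genes in every planned fit but the stricter filter, which called 3, and 0 genes for late against early in all fits with the early arrays; leaving out each array in turn left 0 called, with 647 to 898 late genes at an unadjusted p under 0.05. With the 4 late arrays alone 0 were called and 647 had such a p. Of 90 tested named genes 77 kept their sign when probe sets were averaged. Those that did not were Bmpr1a (-0.0678), Scn9a (0.86), Ddah1 (0.14), Pde3a (0.36), Mycn (0.46), Snhg14 (0.36), 4833422M21Rik (0.55), Asxl1 (0.0277), Meis1 (0.22), Cenpa (-0.59), Nek2 (0.33), Nr4a2 (-0.23) and Selp (-0.0774); the cause was not tested. With either array of a time point left out the difference is that of the other time, so genes of opposite sign turned: Ptchd4 (-3.59 to 3.96), Tmem184c (-3.57 to 4.40), Gm36529 (-2.49 to 4.32), Scn9a (-2.11 to 2.02), Ly6g6g (-1.70 to 3.29), Snhg14 (-3.35 to 3.28), 1700011B04Rik (-4.59 to 1.60), Dbx1 (-1.31 to 2.81), Klk1b11 (-1.12 to 2.94), Syn2 (-3.33 to 1.08), 4833422M21Rik (-3.89 to 0.46), Gm30421 (-1.63 to 1.29) and Meis1 (-0.76 to 0.43). Array centring and quantile normalization turned no named gene. The list counts under these settings, the classes by size and the check of other probe sets were added after seeing the data. ASXL1-MT and mock arrays were paired by time point in each fit; pairing by replicate number was not possible, since each condition has 1 array.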
